A study of Mus musculus with 7 samples.

Results

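Wnt and hedgehog signalling genes of the adrenal capsule and of the progenitor cells beneath it were followed through adrenal maturation in C57BL/6J mice, an inbred laboratory strain with no allele or treatment named in the labels. The 10 genes were fixed by name (Wnt4, Shh, Gli1, Ptch1, Rspo1, Rspo3, Znrf3, Lef1, Axin2 and Lgr5), and all 10 were found among the 35976 gene symbols of the deposited table. Each of the 7 RNA-seq libraries came from 1 pool of whole glands. Before birth, at E18.5, 40 glands of undetermined sex were pooled. At P1 the male pool held 16 glands and the female pool 22, at 2 weeks each sex had a pool of 6, and at 12 weeks each had a pool of 4. E18.5 is a late stage of gestation and P1 is postnatal day 1. With 1 library in each group a single value carries no replicate error, and a p-value can be had only where a model treats the 2 sexes of an age as its replicates. Where a pair of values is given for an age, the male library comes first, and the second value at P1 is from the library labelled P1 female.

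The adrenal cortex is wrapped in a mesenchymal capsule, and the outermost cortical layer, the zona glomerulosa, is renewed from cells at that border. Capsule cells release R-spondins, which raise Wnt signalling in the cells below by clearing the ubiquitin ligases that remove Wnt receptors, and subcapsular cortical cells release sonic hedgehog, which acts back on the capsule. Axin2, Lef1, Znrf3 and Lgr5 are widely used readouts of the canonical Wnt pathway, and Gli1 and Ptch1 are readouts of hedgehog signalling.

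Total reads in genes ranged from 15184210 to 23551289 per library. Markers of the cortex (Nr5a1, Star, Cyp11a1 and others, 7 of 7), the zona glomerulosa (6 of 6), chromaffin cells (7 of 7) and capsule and stroma (7 of 7) had more than 3 reads in each library. The library labelled P1 female held Y-linked reads: 4 Y-linked genes summed to 1273 normalized counts there, against 6135 in P1 male, 4.41 in 2-week female and 2.26 in 12-week female. For each of the 10 genes at least 1 age difference is also given without it. Kidney markers were also unevenly present, the sum over 9 genes being 1315 normalized counts before birth, 9445 in the male P1 pool, 2558 in the library labelled P1 female and 34.95 to 70.3 later. In whole glands, fewer cells of a type and less RNA per cell cannot be told apart.

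Gene positions are those of GENCODE M21 on GRCm38, the assembly also called mm10 that the submitters' processing notes name. Among the Wnt genes, Wnt4 lies at chr4:137277489-137299726, Rspo1 at chr4:124986430-125009099, Rspo3 at chr10:29452416-29535867 and Lgr5 at chr10:115450311-115587780. Znrf3 lies at chr11:5276324-5444847, Lef1 at chr3:131110471-131224356 and Axin2 at chr11:108920349-108950783. The hedgehog genes are Shh at chr5:28456815-28467256, Ptch1 at chr13:63508328-63573598 and Gli1 at chr10:127329882-127341974. Whether the counting used strand is not given in the sources used here, and 5 of the 10 genes (Shh, Gli1, Rspo3, Lef1 and Axin2) share exon bases with a gene on the opposite strand. By share of exon length Shh shared the most with a single gene, 446 bases or 15.7%, with 9530036O11Rik, which had at most 25.2 normalized counts.

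RefSeq promoter windows of GRCm38.p6 were at hand for 5 of the 10 genes. The upstream 250 bases are shown for Rspo1, which fell after birth, and for Axin2 and Ptch1, the readouts whose levels are set against their ligands below. The Ptch1 window belongs to a start at chr13:63565735, inside the annotated gene, which begins at 63573598 on the minus strand. A 106-base stretch is shown for the most downstream of 4 annotated Lef1 starts, because it was the only window of the 8 from these genes that held a searched motif. Sequences run 5′ to 3′ on the gene's strand.
Rspo1, chr4:124986180-124986429, plus strand: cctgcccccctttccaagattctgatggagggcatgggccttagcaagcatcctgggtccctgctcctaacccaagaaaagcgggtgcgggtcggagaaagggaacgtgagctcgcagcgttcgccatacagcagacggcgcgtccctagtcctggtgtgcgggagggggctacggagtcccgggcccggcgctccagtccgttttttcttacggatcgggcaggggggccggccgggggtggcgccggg
Axin2, chr11:108920099-108920348, plus strand: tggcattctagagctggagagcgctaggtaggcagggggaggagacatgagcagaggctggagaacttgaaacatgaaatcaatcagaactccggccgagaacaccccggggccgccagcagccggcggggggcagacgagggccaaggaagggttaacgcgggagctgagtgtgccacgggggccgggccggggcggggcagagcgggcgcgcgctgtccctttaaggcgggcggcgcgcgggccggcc
Ptch1, chr13:63565736-63565985, minus strand: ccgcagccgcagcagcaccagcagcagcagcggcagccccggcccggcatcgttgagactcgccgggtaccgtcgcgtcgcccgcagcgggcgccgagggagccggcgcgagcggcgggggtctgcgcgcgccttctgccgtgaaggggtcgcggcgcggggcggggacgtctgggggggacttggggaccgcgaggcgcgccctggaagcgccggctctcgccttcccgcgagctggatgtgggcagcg
Lef1, chr3:131156094-131156199, plus strand: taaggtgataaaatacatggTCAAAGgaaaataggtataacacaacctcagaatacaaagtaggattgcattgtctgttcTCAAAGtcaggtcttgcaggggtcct
Capitals in the Lef1 stretch mark the core letters bound by TCF and LEF factors, CTTTGA, here in reverse complement, at positions -180 to -175 and -120 to -115 from that start. CTTTGA on either strand was present in 16% of 32851 promoter windows of 300 bases. The GLI site GACCACCCA (0.253% of windows) and the NR5A1 site AAGGTCA (4.72%), both also searched on both strands, had no match in the 8 windows, which says only that these letters are not there. The 250 bases held 66.8% G and C for Rspo1, 69.2% for Axin2 and 78.4% for Ptch1.

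Wnt4 is the Wnt ligand of the outer cortex. It had 1169 normalized counts before birth, 1273 and 1849 at P1, 2517 and 2404 at 2 weeks, and 1194 and 1947 at 12 weeks. Both 2-week libraries were above the others, and the lowest postnatal value was in 12-week male. The log2 difference was 0.68 ± 0.208 (SE) from P1 to 2 weeks (adjusted p 0.0736 in limma) and -0.69 ± 0.208 from 2 weeks to 12 weeks (adjusted p 0.0720), so neither step passed the threshold of 0.05. Without the 12-week male or the 12-week female library the P1 to 2 weeks difference passed (adjusted p 0.00962 and 0.00981). DESeq2 also called it (adjusted p 0.0380). It was 0.79 without the library labelled P1 female (adjusted p 0.226) and 0.34 without 2-week male (adjusted p 0.531). The later step passed without 12-week female (-0.92, adjusted p 0.0131) but was -0.45 without 12-week male (adjusted p 0.217) and -0.35 without 2-week male (adjusted p 0.527). From P1 to 12 weeks the Wnt4 difference was -0.01 (adjusted p 0.976), and 0.10 without the library labelled P1 female (adjusted p 0.827).

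Rspo1 and Rspo3, the R-spondins of the list, went opposite ways. Rspo1 had 142 normalized counts before birth, 170.2 and 292.5 at P1, 67.6 and 74.99 at 2 weeks, and 96.5 and 66.8 at 12 weeks. All 3 libraries from around birth were above all 4 later ones. Rspo1 fell from P1 to 2 weeks by 1.63 ± 0.349 on the log2 scale (SE, adjusted p 0.0256 in limma), to 0.322 of its P1 level. It was lower both between the pools labelled male and between those labelled female. It stayed low at 12 weeks, where the difference from P1 was -1.46 ± 0.349 (adjusted p 0.0168). Without the library labelled P1 female these differences were -1.15 (adjusted p 0.206) and -0.98 (adjusted p 0.166), and neither passed. The first step also failed without P1 male (-2.12, adjusted p 0.107), 2-week male (-1.62, adjusted p 0.198) or 2-week female (-1.64, adjusted p 0.163). The difference to 12 weeks also failed without 12-week female (-0.97, adjusted p 0.0517).

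Rspo3 had 405.0 normalized counts before birth, 580.2 and 1166 at P1, 1056 and 1144 at 2 weeks, and 1959 and 1736 at 12 weeks. The 12-week libraries were the highest, and the library labelled P1 female was level with the 2-week libraries. Rspo3 rose from P1 to 12 weeks by 1.16 ± 0.277 log2 (SE, adjusted p 0.0169 in limma), 2.24-fold. It was higher both between the pools labelled male and between those labelled female. Without P1 male the difference was 0.65 (adjusted p 0.0775), and it was 1.68 when the library labelled P1 female was left out (adjusted p 0.0199). Neither single step passed, with 0.42 ± 0.277 for the earlier and 0.75 ± 0.277 for the later, and both depended on single libraries. The later step was 1.11 without 12-week female (adjusted p 0.00837) and 0.38 without 12-week male (adjusted p 0.382). The earlier step was -0.10 without P1 male (adjusted p 0.770) and 0.94 without the library labelled P1 female (adjusted p 0.0969). The ratio of Rspo3 to Rspo1 normalized counts was 2.85 at E18.5, 3.41 in P1 male and 3.98 in the library labelled P1 female. The ratio was 15.6 and 15.3 at 2 weeks, and 20.3 and 26.0 at 12 weeks. Each later library was above each library from around birth.

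Lgr5, a receptor for R-spondins, had 400.8 normalized counts before birth, 453 and 696.5 at P1, 1023 and 1016 at 2 weeks, and 1219 and 1093 at 12 weeks. The 4 libraries from 2 weeks on were above the 3 earlier ones. Lgr5 rose from P1 to 2 weeks by 0.86 ± 0.216 log2 (SE, adjusted p 0.0417 in limma). From P1 to 12 weeks it rose by 1.04 ± 0.216 (adjusted p 0.0103), 2.05-fold, both between the pools labelled male and between those labelled female. The step to 2 weeks was lost without P1 male (0.51, adjusted p 0.188), the library labelled P1 female (1.21, adjusted p 0.0674), 2-week male (0.74, adjusted p 0.322) or 2-week female (0.98, adjusted p 0.180). The difference to 12 weeks was lost without P1 male (0.69, adjusted p 0.0591) and held without the library labelled P1 female (1.39, adjusted p 0.0219).

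Znrf3 encodes a ubiquitin ligase that removes Frizzled receptors, and R-spondin with an LGR receptor blocks it. Its level was the flattest of the 10, with a highest-to-lowest ratio of 1.37. It had 840.2 normalized counts before birth, 1016 and 1108 at P1, 1118 and 1153 at 2 weeks, and 945 and 997 at 12 weeks. No postnatal age difference passed, the 95% interval from P1 to 12 weeks running from -0.47 to 0.21 log2. Without the library labelled P1 female the Znrf3 difference over that span was -0.10 (adjusted p 0.680), against -0.13 with it. Against the spread of highest-to-lowest ratios, the median over the 16720 genes tested was 2.17 and over these genes 2.40, computed with 1 added to each value.

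Lef1, a transcription factor of the pathway, and Axin2, a scaffold that feeds back on it, also passed no age comparison. Lef1 had 158.8 normalized counts before birth, 145.7 and 252.8 at P1, 223 and 235 at 2 weeks, and 159.4 and 219 at 12 weeks. The 2 lowest postnatal libraries were both male, P1 and 12-week. Axin2 had 589.8 normalized counts before birth, 688 and 1107 at P1, 1192 and 1068 at 2 weeks, and 1012 and 639 at 12 weeks. Its log2 difference was 0.37 ± 0.302 (SE) from P1 to 2 weeks (adjusted p 0.443 in limma) and -0.49 ± 0.302 from 2 weeks to 12 weeks (adjusted p 0.313). The earlier step was -0.18 without P1 male (adjusted p 0.676) and 0.92 without the library labelled P1 female (adjusted p 0.137). The later step was -0.95 without 12-week male (adjusted p 0.0195) and -0.02 without 12-week female (adjusted p 0.964), so both turned on which pool was kept. Axin2 was at -0.12 from P1 to 12 weeks (adjusted p 0.777), and 0.43 without the library labelled P1 female (adjusted p 0.253). For Lef1 the P1 to 2 weeks difference was 0.25 (adjusted p 0.518), and 0.52 without the library labelled P1 female (adjusted p 0.362).

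**Figure D1:**
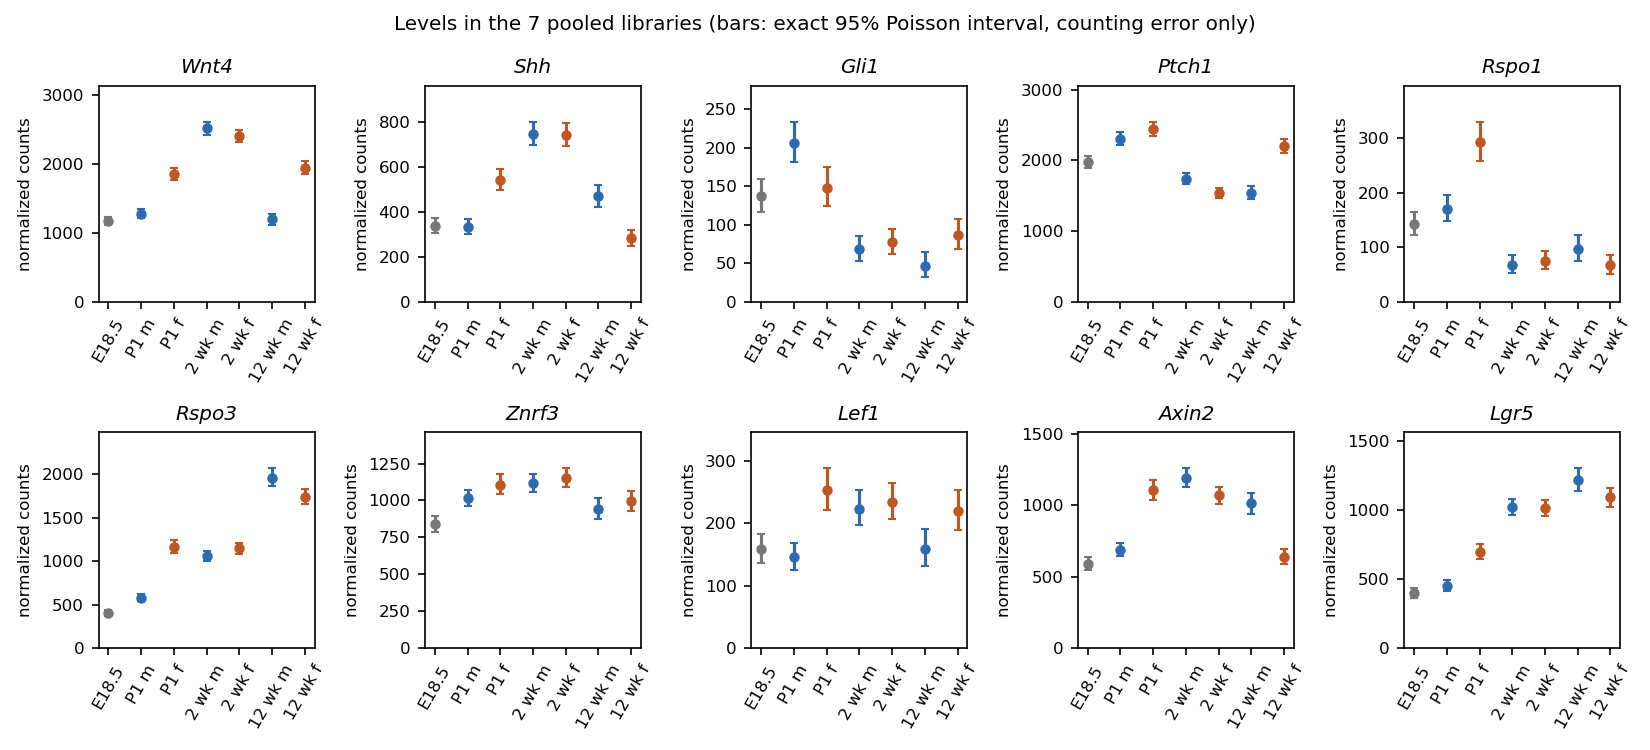
Normalized counts (vertical axes, from 0) of each gene in the 7 libraries (horizontal axes; m, male in blue; f, female in orange; E18.5 in grey), with exact 95% Poisson intervals that cover counting error only. Wnt4 and Shh are highest in the 2-week libraries, Rspo3 and Lgr5 are highest in 12-week male, and Gli1 and Rspo1 are highest at P1.

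Shh, the hedgehog ligand made by subcapsular cortical cells, had 337.8 normalized counts before birth, 332 and 542 at P1, 748 and 744 at 2 weeks, and 468 and 282 at 12 weeks. As for Wnt4, both 2-week libraries were above all others. The log2 difference was 0.81 ± 0.322 (SE) from P1 to 2 weeks (adjusted p 0.140 in limma) and -1.04 ± 0.322 from 2 weeks to 12 weeks (adjusted p 0.0775), and neither passed. The early step passed without 12-week male (adjusted p 0.00805) or 12-week female (adjusted p 0.00739). It was 1.35 without the library labelled P1 female (adjusted p 0.119). The later step was -1.58 without 12-week male (adjusted p 0.000658) and -0.50 without 12-week female (adjusted p 0.245). The Shh difference from P1 to 12 weeks was -0.22 (adjusted p 0.607), and its direction turned on single pools. It was -0.76 without 12-week male (adjusted p 0.0392), 0.32 without 12-week female (adjusted p 0.387) and 0.31 without the library labelled P1 female (adjusted p 0.497).

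Ptch1, the hedgehog receptor, had 1975 normalized counts before birth, 2308 and 2441 at P1, 1743 and 1535 at 2 weeks, and 1544 and 2203 at 12 weeks. It was higher in both P1 libraries than in any other. The P1 to 2 weeks difference was -0.54 ± 0.192 log2 (SE; adjusted p 0.110 in limma), which passed without 12-week male (adjusted p 0.0239) or 12-week female (adjusted p 0.0242). It was -0.58 without the library labelled P1 female (adjusted p 0.300). From P1 to 12 weeks it was -0.36 ± 0.192 (adjusted p 0.171). That value was -0.65 without 12-week female (adjusted p 0.0300), -0.08 without 12-week male (adjusted p 0.796) and -0.41 without the library labelled P1 female (adjusted p 0.342).

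Gli1, the transcription factor induced in hedgehog-responsive cells such as those of the capsule, had its lowest level in 12-week male. It had 137.0 normalized counts before birth, 206.2 and 147.9 at P1, 67.6 and 76.8 at 2 weeks, and 46.1 and 86.0 at 12 weeks. The 12-week male value rests on 33 reads. All 3 libraries from around birth were above all 4 later ones. From P1 to 2 weeks the log2 difference was -1.27 ± 0.365 (SE; adjusted p 0.0621 in limma), which passed without 12-week male (adjusted p 0.00380) or 12-week female (adjusted p 0.00496), and which DESeq2 called too (adjusted p 0.0321). It was -1.77 without the library labelled P1 female (adjusted p 0.124). From P1 to 12 weeks Gli1 fell by 1.46 ± 0.365 (adjusted p 0.0202 in limma), to 0.365 of its P1 level. It was lower both between the pools labelled male and between those labelled female. The difference over that span was -0.95 without P1 male, -1.96 without the library labelled P1 female and -0.94 without 12-week male, and in each of these its call was lost. The ratio of Shh to Gli1 normalized counts was 2.47 at E18.5, 1.61 in P1 male and 3.66 in the library labelled P1 female. The ratio was 11.1 and 9.69 at 2 weeks, and 10.2 and 3.28 at 12 weeks, where the female library was back among the early values.

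Over the 10 genes, 1 rose (Lgr5) and 1 fell (Rspo1) from P1 to 2 weeks, where 16.4% of the 16720 genes tested passed, 5.89% as higher and 10.5% as lower. DESeq2 called 2 higher (Wnt4 and Lgr5) and 2 lower (Gli1 and Rspo1) in that step. The share of all genes that DESeq2 called is not given here for any age comparison, so its counts have no background to be read against. From P1 to 12 weeks 2 rose (Rspo3, Lgr5) and 2 fell (Gli1, Rspo1), where 17.6% rose and 23.5% fell, so that the share called was close to that of all genes, 41.2%. From 2 weeks to 12 weeks 0 passed in limma, where 15.3% of all genes did (5.4% higher and 9.89% lower). For these genes, 3 had an unadjusted p under 0.05 in that step (Wnt4, Shh and Rspo3), edgeR called 0 and DESeq2 called 2 (Wnt4 and Shh, both lower). Scaling each library to the same total moved the median over all genes in that step to -0.20 log2, and Wnt4 (-0.86, adjusted p 0.0367) and Shh (-1.21, adjusted p 0.0442) passed. Without the library labelled P1 female, 0 of the 10 passed from P1 to 2 weeks, 15 of all genes were higher and 13 lower, and 2 of the 10 (Rspo3 and Lgr5) passed from P1 to 12 weeks. Without P1 male, 0 and 1 (Rspo1) passed. In the earlier step both calls were also lost without either 2-week library. Without either P1 library very few of all genes tested kept a call in that step, so a call lost there is not particular to the gene named. Leaving out a 12-week library did not move the P1 to 2 weeks differences, only the spread shared by the fit. This holds too for Wnt4, Shh, Ptch1 and Gli1, which passed that step only in such fits or in DESeq2.

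**Figure D2:**
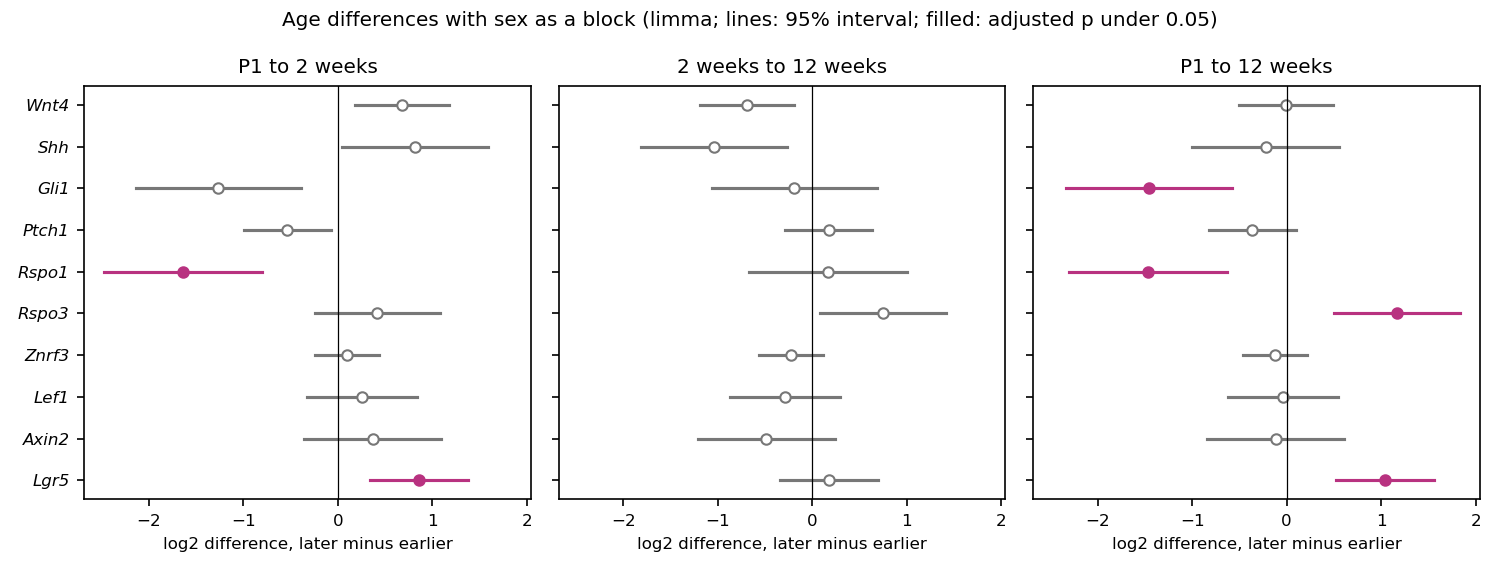
Log2 differences between ages (horizontal axes, later minus earlier, from limma with sex as a block) for the 10 genes, with 95% intervals as lines and filled points where the adjusted p was under 0.05. Rspo1 and Gli1 lie to the left and Rspo3 and Lgr5 to the right from P1 to 12 weeks, at -1.46, -1.46, 1.16 and 1.04.

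Other markers moved with these changes. Of all genes tested, 10.5% fell and 5.89% rose from P1 to 2 weeks, and 23.5% fell from P1 to 12 weeks. Of the 7 capsule and stroma markers, 6 fell from P1 to 2 weeks and 7 fell from P1 to 12 weeks. Over the longer span the median log2 difference of these markers was -1.85, against -0.03 over all genes tested. Their summed level was 134288 to 190845 normalized counts from E18.5 to P1, 44972 and 49023 at 2 weeks, and 18423 and 16084 at 12 weeks. The collagen gene Col1a1 fell by 6.03 log2 from P1 to 12 weeks, while Nr2f2, a transcription factor of the capsule and other mesenchyme, fell by 0.62. All 8 tested kidney markers fell from P1 to 2 weeks, and Umod and Nphs1 had 0 reads from 2 weeks on. All 6 skeletal muscle markers fell as well, from sums of 76444 and 139272 at P1 to 139 and 4846 at 2 weeks. All 6 liver markers fell and all 6 adipocyte markers rose from P1 to 2 weeks. Of the 6 zona glomerulosa markers, 3 rose from P1 to 2 weeks (Cyp11b2, Agtr1b and Hsd3b6) and 0 fell. Of the 7 cortex markers, 3 rose and 0 fell from P1 to 12 weeks, where 17.6% of all genes tested rose. The cortex list summed to 345821 normalized counts in P1 male and 213929 in the library labelled P1 female. At 12 weeks its sums were 774439 in male and 980550 in female. The part of these cell types in the changes of Gli1, Rspo1, Rspo3 and Lgr5 was not tested.

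From E18.5 to P1 there was 1 library against 1 in each sex and no test, and both comparisons use the same E18.5 library. Rspo3 differed most in the female comparison, 2.88-fold higher in the library labelled P1 female (exact 95% interval for counting error 2.58 to 3.21) and 1.43-fold higher in P1 male (1.27 to 1.61). Gli1 was 1.51-fold higher in P1 male (1.23 to 1.84) and 1.08-fold in the library labelled P1 female (0.853 to 1.37). Znrf3 was 1.21-fold and 1.32-fold higher, both beyond counting error. So were Ptch1 at 1.17-fold and 1.24-fold, Wnt4 at 1.09-fold and 1.58-fold and Axin2 at 1.17-fold and 1.88-fold. At least 2-fold apart were 0 of the 10 genes in P1 male, where 8.4% of all genes tested were (4.9% higher and 3.5% lower). In the library labelled P1 female 2 were (Rspo1 and Rspo3), both higher, where 13.2% of all genes tested were (7.04% higher and 6.12% lower). Shh was at 0.984 of its E18.5 level in P1 male (0.855 to 1.13) and 1.60-fold higher in the library labelled P1 female (1.40 to 1.84). Marker sums moved over the same days. The cortex list was at 499929 normalized counts before birth against 345821 and 213929 at P1, the zona fasciculata list at 227092 against 128756 and 50713, and chromaffin cells at 40509 against 46832 and 91937. Skeletal muscle was at 38225 before birth against 76444 and 139272, and exocrine pancreas at 26.0 against 5581 and 71.7. The part of these markers in the E18.5 to P1 differences was not tested.

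Across the 3 postnatal ages no sex difference passed for any of the 10 genes in limma, edgeR or DESeq2, and 0 had an unadjusted p under 0.05 in limma. Of all genes tested 1 passed, 0.00598%. In the same fit the 4 Y-linked genes, whose male minus female differences were 6.97 to 8.06 log2, did not pass either (adjusted p 0.999 in limma), so the count of 0 says little about sex differences. The intervals were wide: for Wnt4 the male minus female difference was -0.39 log2 with a 95% interval of -0.80 to 0.02, and for Shh it was 0.01 with an interval of -0.62 to 0.64. Differences at single ages compare 1 library with 1 and were not tested.

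At 12 weeks, 5 of the 10 genes were higher and 4 lower in the male than in the female library beyond counting error. The share of all genes beyond counting error was not computed, so these counts have no background to be read against. Shh was 1.66-fold higher in the male library (exact 95% interval for counting error 1.41 to 1.97), while Ptch1 was at 0.701 of the female level (0.650 to 0.755) and Gli1 at 0.537 (0.345 to 0.817). Wnt4 was at 0.613 of the female level in the male library (0.564 to 0.666), while Axin2 was 1.58-fold higher (1.42 to 1.77). The ratio of Axin2 to Wnt4 normalized counts was 0.848 in 12-week male and 0.328 in 12-week female, against 0.444 to 0.599 in the other 5 libraries. Lef1 was at 0.726 of the female level (0.571 to 0.920). Rspo3, Lgr5 and Znrf3 differed less, with Rspo3 1.13-fold (1.05 to 1.21) and Lgr5 1.12-fold (1.02 to 1.22) higher in the male library and Znrf3 at 0.948 (0.857 to 1.05). Rspo1 was 1.45-fold higher (1.01 to 2.08), from 69 and 59 reads. None of the 10 was 2-fold apart, where 8.83% of all genes tested were (4.84% higher and 3.98% lower in male).

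Marker sums at 12 weeks were 18423 normalized counts in male and 16084 in female for capsule and stroma, 35823 and 47037 for the zona glomerulosa list, 774439 and 980550 for the cortex list and 82455 and 98845 for chromaffin cells. Kidney markers summed to 34.95 and 47.5, with 7 and 6 of 9 genes at 0 reads. With 1 pool of each sex, an effect of sex and one of the pool cannot be told apart. The part of these marker levels in the differences at 12 weeks was not tested.

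At 2 weeks the ratios lay nearer to 1, from 0.881 to 1.14. Shh was at a male to female ratio of 1.01 (exact 95% interval for counting error 0.913 to 1.11), Lgr5 at 1.01 (0.927 to 1.09), Wnt4 at 1.05 (0.993 to 1.10) and Gli1 at 0.881 (0.639 to 1.21). Beyond counting error were Ptch1 at 1.14 (1.06 to 1.21), Axin2 at 1.12 (1.03 to 1.21) and Rspo3 at 0.923 (0.852 to 0.999). At least 2-fold apart were 0 of the 10, where 4.24% of all genes tested were (0.568% higher and 3.67% lower in male).

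At P1, 9 of the 10 genes were lower in the male library than in the library labelled P1 female, 8 of them beyond counting error. The share of all genes beyond counting error was not computed here either. The median log2 difference of the 10 genes was -0.65 against -0.02 over all genes tested. Rspo3 was at 0.498 (exact 95% interval for counting error 0.452 to 0.548), the only gene of the 10 at least 2-fold apart, where 6.78% of all genes tested were (3.75% higher and 3.03% lower in male). Lef1 was at 0.576 (0.471 to 0.704), Rspo1 at 0.582 (0.483 to 0.700) and Shh at 0.613 (0.536 to 0.701). Gli1 alone was higher in male, 1.39-fold (1.13 to 1.73). Marker sums also differed between these pools. The library labelled P1 female was at 213929 normalized counts for the cortex list against 345821 in male, 29439 against 24214 for the zona glomerulosa list, 190845 against 171880 for capsule and stroma, 5411 against 1491 for Schwann cells and 2558 against 9445 for kidney. It was at 50713 against 128756 for the zona fasciculata, 91937 against 46832 for chromaffin cells, 139272 against 76444 for skeletal muscle and 71.7 against 5581 for exocrine pancreas. Their part in the P1 differences was not tested.

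**Figure D3:**
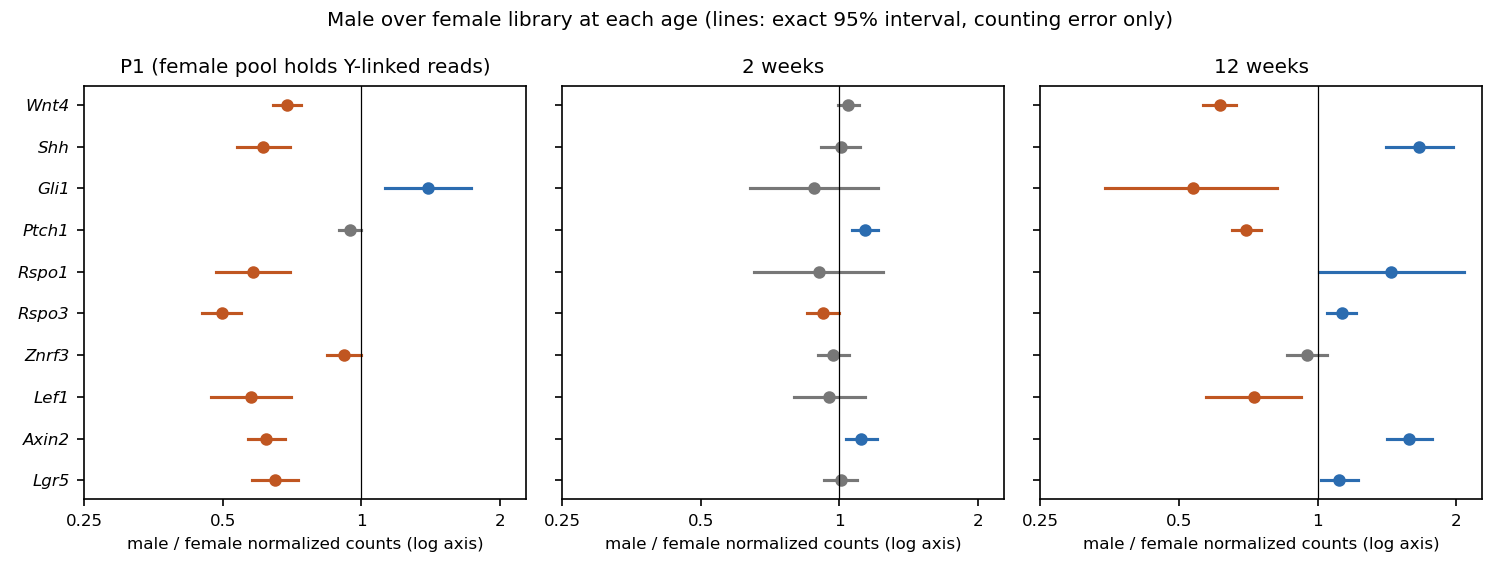
Ratio of male to female normalized counts (horizontal axes, log scale) for each gene at P1, 2 weeks and 12 weeks, with exact 95% intervals that cover counting error only; blue is higher in male, orange lower in male, grey an interval that includes 1. Gli1 is at 1.39 at P1 and 0.537 at 12 weeks, and Shh is at 0.613 and 1.66.

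Per kilobase of exon, averaged over the 7 libraries, Wnt4 (421 normalized counts per kb) and Rspo3 (372) were the most abundant of the 10 and Lef1 (22.7) and Gli1 (22.0) the least. Shh (173), Axin2 (163), Ptch1 (138), Znrf3 (129.9), Lgr5 (82.1) and Rspo1 (67.1) lay between. Neighbours in this order overlapped in their range over the libraries, except Rspo1 (34.4 to 151) and Lef1, which did not. Wnt4 ranged from 279 to 600 per kb over the libraries and Rspo3 from 131 to 634, while Lef1 ranged from 16.6 to 28.8 and Gli1 from 9.24 to 41.3. Lengths are the union of annotated exons and may exceed those of the transcripts made in the gland.

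The rest of both pathways was counted from lists of 85 further genes, of which 75 passed the mean of 10 normalized counts. From P1 to 12 weeks 35 fell and 3 rose, where 23.5% of all genes tested fell and 17.6% rose, and the median was -0.80 log2 against -0.03. From P1 to 2 weeks 17 fell and 3 rose, where 10.5% of all genes tested fell and 5.89% rose. In the later step 13 fell and 0 rose, where 9.89% fell and 5.4% rose. Without the library labelled P1 female 17 fell and 1 rose from P1 to 12 weeks and 0 passed from P1 to 2 weeks. Without P1 male these were 23, 0 and 0. The step from P1 to 2 weeks also lost most or all of its calls without either 2-week library. Without either 12-week library the differences of that step did not move, and only the spread shared by the fit did. From 2 weeks to 12 weeks 5 fell without either P1 library, 1 without 2-week male, 2 without 2-week female and 20 with equal totals. Calls over all genes, given at the end, shifted in the same way. From P1 to 12 weeks they were fewer whichever library was left out. From P1 to 2 weeks very few were left without either P1 library. In the later step more genes were lower with equal totals. These changes in the pathway counts are therefore not particular to the pathway genes. The part of the capsule, kidney, muscle and liver markers that fell over the same ages was not tested here either.

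Of 11 hedgehog receptors and transducers 9 fell from P1 to 12 weeks, where 23.5% of all genes tested fell. The list's median was -1.38 log2. Gli2, the main activating transcription factor of the pathway, fell by 2.55 ± 0.281 (SE; adjusted p 0.000994 in limma), from 259 and 359.8 normalized counts in P1 male and the library labelled P1 female to 37.8 and 69.0 at 12 weeks. The co-receptors Gas1 (-2.42 ± 0.181) and Cdon (-1.93 ± 0.177) and the transcription factor Gli3 (-1.48 ± 0.166) fell too, and Boc (-0.05) and Stk36 (-0.32) did not pass. Of the 7 tested genes for other ligands and for ligand release 4 fell from P1 to 12 weeks, against the same 23.5% of all genes tested. The 4 were Scube2 (-2.58 ± 0.364), Disp1 (-1.16 ± 0.168), Scube3 (-1.10 ± 0.225) and Dhh (-1.06 ± 0.320). Ihh had 0 reads from 2 weeks on.

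Among 10 tested Wnt ligands other than Wnt4, 5 fell and 1 rose from P1 to 12 weeks, where 23.5% of all genes tested fell and 17.6% rose. Wnt2 (-3.72 ± 0.724), Wnt11 (-3.66 ± 0.565) and Wnt10b (-3.57 ± 0.616) fell most, from at most 99.0 normalized counts at P1, and Wnt9a (-1.58 ± 0.392) and Wnt5b (-0.89 ± 0.277) fell less, while Wnt2b (0.62, adjusted p 0.0176 in limma) rose. Of 19 receptors and R-spondin genes 9 fell and 0 rose over that span, against the same shares of all genes tested. The falls were led by Rspo2 (-2.70 ± 0.656), Fzd2 (-2.27 ± 0.227), Ror1 (-1.39 ± 0.221) and Ror2 (-1.33 ± 0.200). Lgr6, an R-spondin receptor related to Lgr5, was instead high at 2 weeks only: it had 72.8 and 48.6 normalized counts at P1, 416 and 433 at 2 weeks and 18.2 and 36.2 at 12 weeks. It rose by 2.81 ± 0.394 (adjusted p 0.00749 in limma) and then fell by 3.99 ± 0.394 (adjusted p 0.00238).

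Of 18 transducers 6 fell and 2 rose from P1 to 12 weeks, where 23.5% of all genes tested fell and 17.6% rose. The 2 that rose were the Wnt secretion genes Porcn (0.99 ± 0.275) and Wls (0.55 ± 0.143). Bcl9 (-1.85 ± 0.167) and Bcl9l (-1.68 ± 0.158), co-activators of beta-catenin, and the transcription factor Tcf7l1 (-1.84 ± 0.295) fell most, followed by the Dishevelled genes Dvl2 (-1.16 ± 0.204) and Dvl3 (-1.09 ± 0.181). Among 10 feedback and target genes, Notum, a Wnt-inactivating enzyme, rose from P1 to 2 weeks by 1.92 ± 0.508 (adjusted p 0.0484 in limma), from 21.3 and 76.2 normalized counts to 172.6 and 141.2. Trabd2b (-1.56 ± 0.301) and Kremen1 (-0.59 ± 0.158) fell from P1 to 12 weeks. Apcdd1, a Wnt antagonist, rose by 1.12 ± 0.251 and then fell by 1.53 ± 0.251, and Nkd1, a feedback inhibitor, fell by 1.13 ± 0.227 from 2 weeks to 12 weeks. The highest values of Notum, Apcdd1 and Nkd1, like those of Wnt4 and Shh, were in the 2-week libraries.

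Without the library labelled P1 female, the P1 to 12 weeks differences of Gli2, Gas1, Cdon, Gli3, Scube2, Disp1, Wnt10b, Fzd2, Ror1, Ror2, Bcl9 and Bcl9l still passed, and those of the other pathway genes named as fallen over that span kept their sign but did not pass. From P1 to 2 weeks none of the named pathway genes passed without it: Lgr6 was at 2.27 (adjusted p 0.0985 in limma), Notum at 2.88 (adjusted p 0.0639) and Apcdd1 at 1.43 (adjusted p 0.110). Without P1 male, Notum was at 0.97 (adjusted p 0.218), and without 2-week male Notum was at 1.32 (adjusted p 0.375) and Apcdd1 at 0.69 (adjusted p 0.281). From 2 weeks to 12 weeks Lgr6 passed whichever library was left out. In that step Apcdd1 was at -1.11 without 2-week male, and its call was lost there. Nkd1 was at -0.78 without 2-week male, and its call was lost without either P1 library or either 2-week library. From P1 to 12 weeks Ror1 was at -1.19 without P1 male, where its call was lost. The rises of Wnt2b, Porcn and Wls over that span all lost their calls without P1 male, 2-week male or 2-week female. Not all of them held without the library labelled P1 female.

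**Figure D4:**
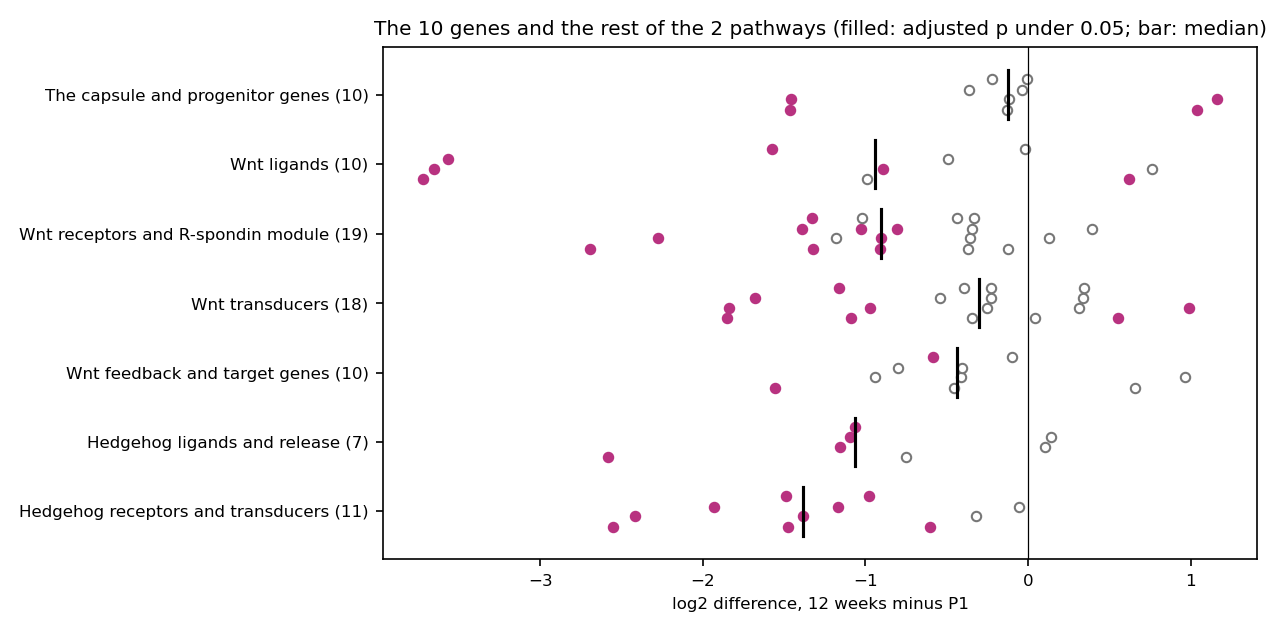
Log2 differences from P1 to 12 weeks (horizontal axis) for the 10 genes and for the tested genes of 6 lists covering the rest of both pathways; each point is a gene, filled where the adjusted p was under 0.05, and the vertical bar is the list's median. The median is -0.12 for the 10 genes and -1.38 for hedgehog receptors and transducers.

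Genes with the most similar profile were found as the smallest root mean square difference in log2 values over the 7 libraries, after each gene's mean was removed, among 13669 genes with a mean of at least 50. Gli1 was closest to Foxc2 (0.104), Ror1 (0.141) and Slco2a1 (0.153), and Rspo1 to Maf (0.117), Tnxb (0.132) and Mrc1 (0.180). Rspo3 was closest to Parm1 (0.0837), Cdnf (0.164) and Naaladl2 (0.189), and Lgr5 to Vwa8 (0.0744), Kcnip3 (0.110) and Hlf (0.122). Foxc2 had 117.6, 189.8, 155.6, 69.4, 67.9, 41.9 and 75.8 normalized counts in the order E18.5, P1, 2 weeks and 12 weeks, male before female. Wnt4 was closest to Kcnj12 (0.0943) and Hcn2 (0.121). Shh (Vwa1, 0.157; Tceal3, 0.161) and Axin2 (Lgi3, 0.0700; Cmtr1, 0.105) both had Sstr2 among their 3 closest, at 0.162 and 0.121. The flat profile of Znrf3 had 751 genes within 0.15, led by Thtpa, Ubxn1 and Txnl4b, and that of Ptch1 had 121, led by Epb41l5, Fto and Rps15. Lef1 had 33 such genes, led by Unc5a, Nabp2 and Ppp1r9b.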

How the data were processed

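RNA sequencing of total RNA from pooled adrenal glands gave 7 libraries, 1 per group. Per the submitters' processing notes, CASAVA 1.8.2, HISAT2 2.1.0, HTSeq 0.9.1 and DESeq2 2.11.40.6 and the build mm10 were used, with no role or order given. The authors deposited 1 signal table of normalized counts for 35976 symbols. All values were whole reads divided by 1 size factor per library, within 0.001 reads, so reads were recovered (15184210 to 23551289 per library).

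The 16720 genes whose mean reached 10 normalized counts were tested on log2(normalized count + 1), a scale that understates changes of low genes. limma 3.58.1 in R 4.3.3 (lmFit, eBayes with a trend, two-sided, Benjamini-Hochberg over all genes tested, threshold 0.05) was fitted to the 6 postnatal libraries with age and sex as terms, leaving 2 residual degrees of freedom. E18.5 was left out because its sex was not determined. edgeR 4.0.16 called 2795 genes in the P1 to 2 weeks comparison, 2396 in the later step, 6754 over P1 to 12 weeks and 0 for sex (667 at an unadjusted p under 0.05) on the recovered reads, 100% of which came out whole, and DESeq2 1.42.0 was also run. Nothing in the labels gives more than 1 pool per group, so p-values measure the spread between the sexes of an age about the fitted terms. Ratios of 2 libraries carry exact (Clopper-Pearson) 95% intervals, which cover counting error only: the labels name no molecular identifiers, so reads may repeat a molecule.

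Pathway genes named are the 5 with the largest change per list among those past the threshold in an age comparison, and the most alike genes are the 3 closest in profile. Some genes under these rules are not reported here. Boc, Stk36, Ihh, Wnt2b, Porcn, Wls and the single marker genes named were chosen after their values were seen. The genes and lists were chosen with earlier results of these data known. Alternatives were other pseudocounts, filters, scalings, tools, no trend, and leaving out each library.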

Additional observations from a re-analysis of the deposited data

Results flagged for a closer look

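With 1 library per group, differences that went opposite ways in 2 ages or in both sexes, each beyond counting error, were collected; none of these oppositions was tested. There were 12, of which 9 are sex differences across ages and 3 are age differences across sexes. The number among all genes was not computed.

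Male minus female log2 differences at P1 and 12 weeks, with the change between them, were -0.70 and 0.73 for Shh (1.44), 0.48 and -0.88 for Gli1 (-1.36) and -0.69 and 0.66 for Axin2 (1.35). They were -0.78 and 0.52 for Rspo1 (1.30), -1.005 and 0.17 for Rspo3 (1.18) and -0.62 and 0.16 for Lgr5 (0.78). Axin2 also went from -0.69 at P1 to 0.16 at 2 weeks (0.84). All 7 use the library labelled P1 female, which holds Y-linked reads. Between 2 weeks and 12 weeks, which do not use that library, Ptch1 went from 0.18 to -0.51 (-0.70) and Rspo3 from -0.12 to 0.17 (0.29).

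Ptch1 differed from 2 weeks to 12 weeks by -0.17 in males and 0.52 in females (0.70). Shh differed from P1 to 12 weeks by 0.49 between the libraries labelled male and -0.94 between those labelled female (-1.44), and Axin2 by 0.56 and -0.79 (-1.35). These 3 restate sex differences listed before, since they use the same 4 libraries.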

How the results depend on the processing

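For the 10 genes 600 alternative values of the age and sex differences were computed: 555 kept their side of the threshold, 25 lost and 20 gained a call. None of the 6 calls changed sign, and 35 values of differences that were not called did. Of 200 alternative values of single-library differences 198 stayed within counting error; with equal totals Ptch1 moved to 0.22 (library labelled P1 female over E18.5) and to 0.00089 (P1 male minus female). Testing all genes with a mean above 0 ended all 6 calls, and with no trend in eBayes Rspo1 (adjusted p 0.0618 in limma) and Lgr5 (0.112) from P1 to 2 weeks and Rspo3 (0.0596) from P1 to 12 weeks were lost. With a pseudocount of 0.1 Lgr5 from P1 to 2 weeks had an adjusted p of 0.0505.

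Over all genes, leaving out a library gave 2 (without P1 male) to 4461 (without 12-week male) calls from P1 to 2 weeks (2737 with all), 421 (without 2-week female) to 3035 from 2 weeks to 12 weeks (2557), 3207 (without the library labelled P1 female) to 6271 from P1 to 12 weeks (6881) and 0 (without either 2-week library) to 51 (without 12-week female) for sex (1). With no filter on low genes the counts were 0 from P1 to 2 weeks (6431 at an unadjusted p under 0.05), 0 from 2 weeks to 12 weeks (6036) and 0 for sex (783). With no trend in eBayes they were 1672, 1661 and 0 (638); for sex edgeR gave 0 (667) and DESeq2 9. Equal totals moved the split from 2 weeks to 12 weeks from 903 higher and 1654 lower to 647 and 2515. Genes at least 2-fold apart, with no filter and at a mean of at least 50, numbered 3933 and 624 (E18.5 to P1 male, 1405 as reported), 5793 and 1204 (to the library labelled P1 female, 2200), 4550 and 473 (P1, 1134), 2331 and 325 (2 weeks, 709; 455 with a pseudocount of 5) and 5215 and 814 (12 weeks, 1476). The cause was not tested. No paired analysis was possible because the labels give no replicate numbers, other than through the sex term that each age comparison already holds. Gli1 (33 to 252 reads) and Rspo1 (59 to 265 reads) are limited most by depth.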
